A study of Rattus norvegicus with 12 samples.

Results

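The troponins and sarcomeric tropomyosins were followed through RNA-seq of neonatal rat ventricular myocytes (NRVMs) as 10 genes chosen by symbol out of the 18483 genes in the tables. They were the troponin T genes Tnnt1, Tnnt2 and Tnnt3, the troponin I genes Tnni1, Tnni2 and Tnni3, the troponin C genes Tnnc1 and Tnnc2, and the tropomyosin genes Tpm1 and Tpm3. All 10 were present in the count and FPKM tables, and 7 passed the filter on low counts. The cells were isolated from ventricles of Sprague-Dawley rat neonates and purified on Percoll, and the labels name no genetic alteration. They received siNeg (a control siRNA) or siSlc39a2 (an siRNA against the zinc transporter Slc39a2), with or without phenylephrine (PE), an agonist of alpha-1 adrenergic receptors that makes cardiomyocytes grow. This gave 4 groups of 3 biological replicates, named siNeg, siSlc39a2, siNeg PE and siSlc39a2 PE. By the sample labels PE was given for 36 h, beginning 12 h after transfection, whereas the culture methods of the study give a longer exposure. The study calls its replicates independent; whether they came from separate litters is not given in the sources used here.

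Troponin and tropomyosin form the calcium switch of the thin filament. Troponin C binds calcium, troponin I holds the filament in its inhibited state, and troponin T anchors the complex to tropomyosin, the coiled coil that lies along actin and covers its myosin binding sites. Troponin I and troponin T have cardiac, slow skeletal and fast skeletal forms from separate genes. The heart before and around birth makes the slow skeletal troponin I of Tnni1 beside the cardiac one of Tnni3, and Tnni3 takes over as the animal matures. Tnnt2 is cardiac troponin T. Tnnc1 serves cardiac and slow muscle alike. Tpm1 gives the main cardiac tropomyosin, and Tpm3 gives slow skeletal and also cytoskeletal forms. The tables hold a single value per gene, so the muscle and cytoskeletal transcripts of Tpm1 and Tpm3 could not be separated.

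The targeted transcript was checked first. The siNeg samples held 50, 50 and 59 counts of Slc39a2 against 21, 11 and 2 in siSlc39a2, and with PE there were 95, 198 and 182 in siNeg PE and 31, 25 and 38 in siSlc39a2 PE. Its log2 fold change on knockdown was -2.35 without PE and -2.33 with PE (edgeR, adjusted p = 9.80e-04 and 2.24e-04). Total counts per sample were between 24065539 and 28603854. The labelled cell type was checked on 10 cardiomyocyte markers outside the troponin and tropomyosin genes (Actn2, Ryr2, Pln, Myh6 and others). Their summed CPM, which are counts scaled to library size by TMM, ran from 29317 to 31991 in siNeg, from 19915 to 21767 in siSlc39a2, from 22942 to 23579 in siNeg PE, and from 17869 to 18501 in siSlc39a2 PE. In siNeg the largest part of this sum was Myh6, at 13729 to 17391 CPM, against 3496 to 3867 in siSlc39a2 PE. Of these 10 cardiomyocyte markers, 2 were called higher and 3 lower with PE after siNeg. With knockdown without PE, 1 was called higher and 5 lower. Over all genes 24.0% and 25.7% were called in the first comparison, and 22.8% and 26.4% in the second. Fibroblast markers were present too. The 10 genes (Col1a1, Col1a2, Col3a1, Pdgfra, Postn and others) summed to 15911 to 21492 CPM in siNeg, 6273 to 6566 in siSlc39a2, 10570 to 13813 in siNeg PE, and 4424 to 5983 in siSlc39a2 PE. Endothelial and macrophage markers summed to at most 22.5 CPM in any sample.

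**Figure D1:**
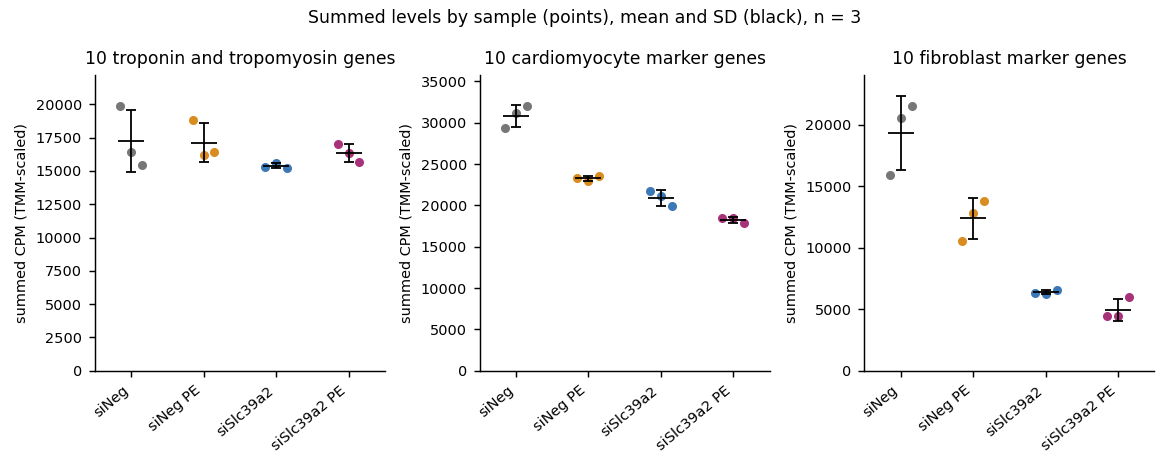
Summed CPM (TMM-scaled) by sample of the 10 troponin and tropomyosin genes, 10 cardiomyocyte markers and 10 fibroblast markers in the 4 groups. Points are samples and black marks are the mean and SD (n = 3). The fibroblast sum lay between 15911 and 21492 in siNeg and between 4424 and 5983 in siSlc39a2 PE. In siNeg, Myh6 made up the largest part of the cardiomyocyte sum and Col1a1 that of the fibroblast sum.

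A small number of genes carried the bulk of the signal, and 5 of the 10 were among the most abundant transcripts of these cells. FPKM (fragments per kilobase of gene, scaled to the number of mapped fragments) allows levels of different genes to be compared per length. In siNeg the mean FPKM was 5812 for Tpm1 (2nd of all 18483 genes), 4416 for Tnnt2 (6th), 3643 for Tnnc1 (9th), 2368 for Tnni3 (23rd) and 1846 for Tnni1 (31st). Tpm3 followed at 36.3 (2552nd). The ranges of Tnnt2 and Tnnc1 overlapped over the 3 siNeg samples, as did those of Tnni3 and Tnni1, although in both pairs the first gene was the higher in 3 of 3 samples. The order was not the same in all groups. In siSlc39a2, Tpm1 (5238) and Tnnt2 (5148) overlapped, with Tpm1 the higher in 2 of 3 samples, and in siSlc39a2 PE, Tnni3 (1396) and Tnni1 (1356) overlapped, with Tnni3 the higher in 2 of 3 samples.

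The fast skeletal genes were at the limit of counting. Tnni2, fast troponin I, never had more than 2 counts, and neither did Tnnc2, fast troponin C. Tnnt3, fast troponin T, had 1, 1 and 0 counts in siNeg, 0, 0 and 2 in siSlc39a2, 2, 4 and 6 in siNeg PE, and 0, 2 and 1 in siSlc39a2 PE. A gene with 0 counts in a sample could still have had up to 3, which is between 0.102 and 0.118 CPM here, for counting error only. These 3 genes did not pass the filter on low counts and no fold change is given for them. Tnnt1, slow skeletal troponin T, passed it with 9, 10 and 2 counts in siNeg, 11, 7 and 14 in siSlc39a2, 11, 7 and 11 in siNeg PE, and 24, 13 and 17 in siSlc39a2 PE. Its mean FPKM in siNeg was 0.297, the 12833rd of all genes. Transcripts that mark the skeletal muscle lineage were likewise scarce: of 6 such genes in the tables none passed the filter, their summed level was at most 0.985 CPM, and Myf5, Myf6 and Pax3 had at most 3 counts in every group.

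**Figure D2:**
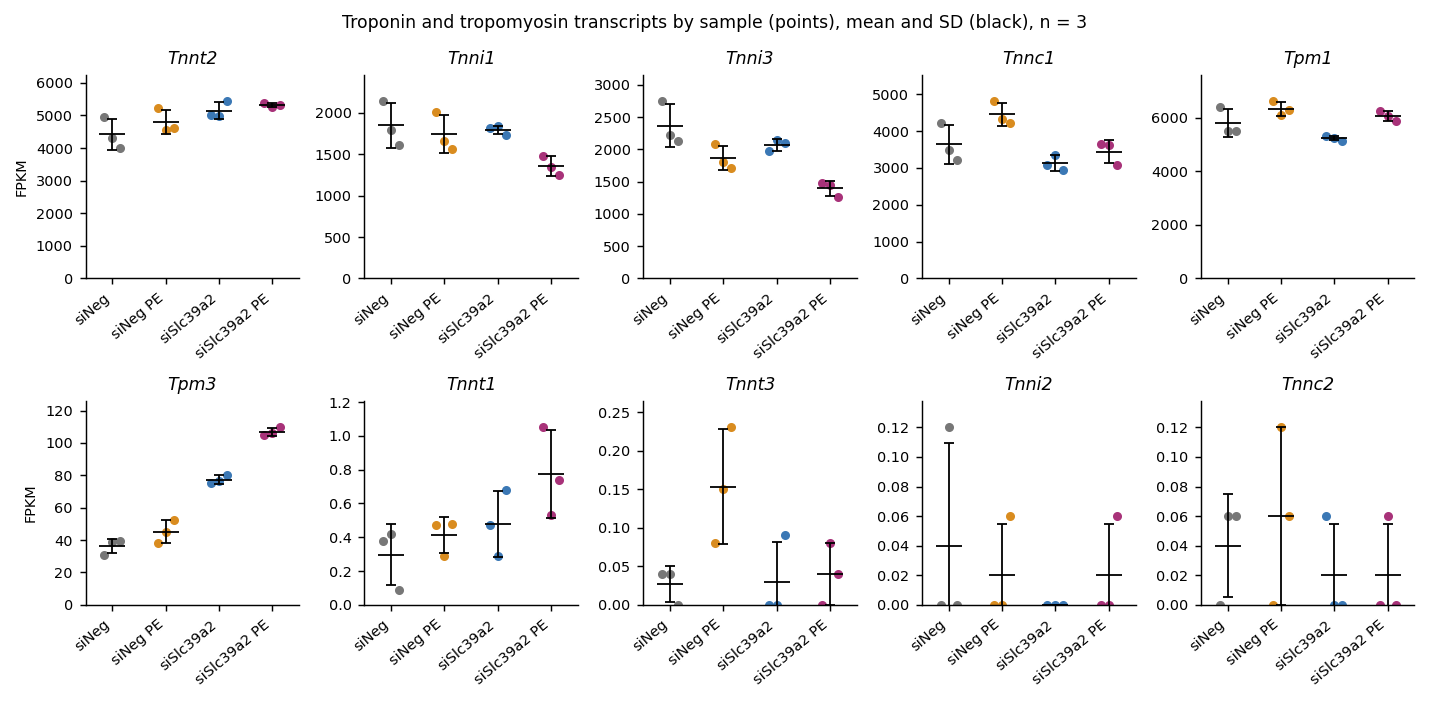
FPKM of the 10 troponin and tropomyosin genes by sample in the 4 groups, each panel with its own axis from 0. Points are samples and black marks are the mean and SD (n = 3). Tpm3 rose from between 31.06 and 39.32 in siNeg to between 104.88 and 109.58 in siSlc39a2 PE, whereas the panels of Tnnt1, Tnnt3, Tnni2 and Tnnc2 rest on a few reads per sample.

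Within the families the cardiac gene gave nearly all troponin T and troponin C. Tnnt2 made up 99.99% of summed troponin T FPKM on average in siNeg and at least 99.98% in every sample. Tnnc1 made up more than 99.99% of troponin C in every sample. Troponin I alone was mixed, with Tnni1 giving 43.8% ± 0.771 (SD, n = 3) in siNeg. Troponin I and T genes lie in 3 neighbouring pairs. By RefSeq annotation of GRCr8, Tnni3 and Tnnt1 lie on chromosome 1 with 0 protein-coding genes between them, and their siNeg means were 2368 and 0.297 FPKM. Tnni1 and Tnnt2 lie on chromosome 13 with 1 gene between them and were both abundant, at 1846 and 4416 FPKM. Tnni2 and Tnnt3 lie on chromosome 1 with 2 genes between them, and neither passed the filter.

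The sequences 250 bases before the annotated starts are shown for the 5 genes on which the results below turn, since they carry the cardiac and the developmental forms. RefSeq (GRCr8) gave 11 start sites for 8 of the 10 genes; Tnnc1 and Tnnt3 had no entry. Capitals mark 3 short motifs, each searched on both strands. The M-CAT box, which TEAD factors bind, was searched as CATTCC. The motif of the GATA family of factors was searched as AGATAA. The core promoter motif known as the TATA box was searched as TATAAA. A match on the opposite strand appears as the reverse complement of the motif. No match overlapped another. The sequences run 5′ to 3′ in the direction of transcription.
Tnni3, chr1:78342321-78342570, plus strand: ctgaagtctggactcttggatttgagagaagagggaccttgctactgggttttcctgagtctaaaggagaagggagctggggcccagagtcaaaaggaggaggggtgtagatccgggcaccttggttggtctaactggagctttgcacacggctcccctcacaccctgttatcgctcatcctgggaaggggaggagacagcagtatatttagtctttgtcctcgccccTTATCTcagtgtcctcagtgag
Tnni1, chr13:49781279-49781528, plus strand: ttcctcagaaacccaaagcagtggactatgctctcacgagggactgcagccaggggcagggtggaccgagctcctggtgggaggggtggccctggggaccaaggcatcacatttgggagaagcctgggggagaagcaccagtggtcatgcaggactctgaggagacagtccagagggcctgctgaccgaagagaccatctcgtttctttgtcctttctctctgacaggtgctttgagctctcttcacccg
Tnnt2, upstream start, chr13:49818873-49819122, plus strand: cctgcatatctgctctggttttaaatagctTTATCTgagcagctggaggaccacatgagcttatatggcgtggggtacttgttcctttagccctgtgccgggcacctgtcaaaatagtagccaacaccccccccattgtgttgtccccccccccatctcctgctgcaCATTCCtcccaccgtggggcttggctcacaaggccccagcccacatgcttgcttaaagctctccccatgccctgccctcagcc
Tpm1, chr8:76543416-76543665, minus strand: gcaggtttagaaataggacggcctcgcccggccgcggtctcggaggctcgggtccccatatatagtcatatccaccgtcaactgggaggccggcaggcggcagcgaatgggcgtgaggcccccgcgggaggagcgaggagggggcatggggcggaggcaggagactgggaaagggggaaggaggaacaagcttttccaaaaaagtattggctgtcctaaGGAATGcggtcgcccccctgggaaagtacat
Tpm3, upstream start, chr2:177814633-177814882, plus strand: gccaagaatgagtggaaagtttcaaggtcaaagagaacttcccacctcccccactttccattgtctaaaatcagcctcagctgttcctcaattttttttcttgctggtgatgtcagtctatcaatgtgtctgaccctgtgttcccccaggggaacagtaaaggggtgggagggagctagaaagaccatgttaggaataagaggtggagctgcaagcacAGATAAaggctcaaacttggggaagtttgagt
Tpm3, second start, chr2:177821115-177821364, plus strand: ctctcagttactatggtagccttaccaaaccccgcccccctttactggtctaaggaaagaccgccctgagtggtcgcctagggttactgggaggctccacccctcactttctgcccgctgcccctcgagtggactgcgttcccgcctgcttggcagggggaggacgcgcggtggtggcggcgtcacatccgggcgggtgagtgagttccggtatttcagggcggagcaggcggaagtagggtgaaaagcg

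CATTCC was found before the upstream start of Tnnt2 and before Tpm1, and in 12.1% of all 33469 RefSeq promoter windows of this length. AGATAA was found before Tnni3 and before the upstream starts of Tnnt2 and Tpm3, and in 10.3% of all windows. TATAAA was found before Tnnt1 and Tnni2, whose sequences are not shown, and in 12.9% of all windows. The upstream start of Tpm3 had 46.8% G and C, and its second start had 63.2%. The window before Tnni1 held none of the 3 motifs.

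PE lowered cardiac troponin I. In siNeg, Tnni3 was at 2746, 2224 and 2133 FPKM, and in siNeg PE at 2080, 1805 and 1717. All 3 siNeg PE samples were below all 3 siNeg samples. The log2 fold change was -0.43 (SE 0.11, edgeR quasi-likelihood test, Benjamini-Hochberg adjusted p = 0.00821). It was smaller and not called by limma after quantile normalization, at -0.15 on log2(FPKM + 1) and -0.26 on log2(count + 1) (adjusted p = 0.120 and 0.0619). After knockdown Tnni3 was at 1971, 2141 and 2098 FPKM without PE and at 1479, 1443 and 1266 with PE. These groups did not overlap either, and the 3 siSlc39a2 PE samples were the lowest of all 12. The log2 fold change of PE after knockdown was -0.52 (SE 0.11, edgeR adjusted p = 0.00192). The expected counts of Tnni3 were not whole numbers, which means that some reads were shared with another locus, so its values are uncertain to that extent. Those of the other 9 genes were whole.

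Slow skeletal troponin I followed a part of the way. Tnni1 was at 2139, 1789 and 1612 FPKM in siNeg and at 2002, 1663 and 1556 in siNeg PE. These ranges overlapped, and the change did not pass the test (log2 fold change -0.16, SE 0.12, edgeR adjusted p = 0.281). In siSlc39a2 it was at 1812, 1833 and 1735 FPKM and in siSlc39a2 PE at 1480, 1341 and 1247. All 3 PE samples were lower, with a log2 fold change of -0.34 (SE 0.12, edgeR adjusted p = 0.0271). That call was lost without replicate 1 or 2 of siSlc39a2 (adjusted p = 0.0703 and 0.0770) and without replicate 2 or 3 of siSlc39a2 PE (0.0712 and 0.0968). Whether PE acted differently on either gene after knockdown did not pass the test of the interaction (Tnni3 -0.09, SE 0.16; Tnni1 -0.18, SE 0.17; edgeR adjusted p = 0.860 and 0.678).

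The other genes of the complex did not fall with PE. Tnnt2 was at 4941, 4314 and 3994 FPKM in siNeg and at 5232, 4552 and 4604 in siNeg PE, and its log2 fold change was 0.04 (SE 0.09, edgeR adjusted p = 0.744). After knockdown it was at 5018, 4987 and 5439 FPKM without PE and at 5396, 5269 and 5325 with PE (log2 fold change 0.10, SE 0.09, adjusted p = 0.336). Tnnt2, cardiac troponin T, was not called by edgeR with TMM scaling in any of the 4 comparisons. On log2(FPKM + 1), limma called it with PE after siNeg (0.25, adjusted p = 0.00884) and, downwards, with PE after knockdown (-0.17, adjusted p = 0.0424). Tnnc1 was at 4229, 3486 and 3213 FPKM in siNeg and at 4815, 4326 and 4217 in siNeg PE, with ranges that met only at the highest siNeg sample (log2 fold change 0.19, SE 0.12, edgeR adjusted p = 0.207). Without replicate 1 of siNeg the change of Tnnc1 was 0.34 and passed the test (adjusted p = 0.0273), and limma also called it (0.33 on log2(FPKM + 1), adjusted p = 0.00110). After knockdown Tnnc1 was at 3087, 3360 and 2952 FPKM without PE and at 3644, 3616 and 3080 with PE (log2 fold change 0.18, SE 0.12, adjusted p = 0.221).

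Of the tropomyosins, Tpm1 was at 6413, 5519 and 5505 FPKM in siNeg and at 6617, 6115 and 6273 in siNeg PE (log2 fold change 0.04, SE 0.08, edgeR adjusted p = 0.713). In siSlc39a2 it was at 5315, 5252 and 5148 FPKM and in siSlc39a2 PE at 6248, 6075 and 5879. The last 2 groups did not overlap, and Tpm1 rose with PE after knockdown by 0.26 on the log2 scale (SE 0.08, edgeR adjusted p = 0.0119). This call was lost without replicate 3 of siSlc39a2 or replicate 1 of siSlc39a2 PE (adjusted p = 0.0630 and 0.0601), and its direction turned with limma on log2(FPKM + 1) (-0.11, adjusted p = 0.0918). Tpm3 was at 31.06, 38.52 and 39.32 FPKM in siNeg and at 37.99, 45.0 and 52.36 in siNeg PE, which overlapped (log2 fold change 0.09, SE 0.09, adjusted p = 0.433, against 0.32 and 0.0419 with limma on log2(FPKM + 1)). After knockdown it was at 75.05, 76.72 and 80.29 FPKM without PE and at 104.88, 106.06 and 109.58 with PE. All 3 PE samples were higher, and the log2 fold change was 0.43 (SE 0.09, edgeR adjusted p = 0.00172).

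In all, PE with the control siRNA left 0 of the 7 tested genes higher and 1 lower, where 24.0% of all 13967 tested genes were called higher and 25.7% lower. PE after knockdown left 2 higher (Tpm1, Tpm3) and 2 lower (Tnni1, Tnni3), where 30.7% and 29.3% of all genes were called. None of these changes reached 2-fold. Over the 7 genes the median change was 0.04 with siNeg and 0.18 after knockdown on the log2 scale, beside -0.01 and 0.01 over all genes. The comparisons share groups and are given side by side.

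Knockdown of Slc39a2 raised Tpm3. The 3 siSlc39a2 samples (75.05 to 80.29 FPKM) lay above all 6 siNeg samples with or without PE (31.06 to 52.36), and the 3 siSlc39a2 PE samples lay higher still. The log2 fold change was 0.96 without PE (SE 0.09, edgeR adjusted p = 3.82e-06) and 1.29 with PE (SE 0.09, adjusted p = 2.24e-07), or 1.94-fold and 2.45-fold. Each call held in all 15 other settings and left-out libraries, and the change ran from 0.87 to 1.10 without PE and from 1.19 to 1.38 in its presence. Tpm3 moved from the 2552nd gene by mean FPKM in siNeg to the 935th in siSlc39a2 PE. The knockdown effect was larger with PE by 0.34 on the log2 scale, which did not pass the test of the interaction over all genes (SE 0.13, edgeR adjusted p = 0.230). Of the 10 fibroblast markers 8 were called lower and 1 (Tcf21) higher with knockdown, without PE as well as with it. Over all genes 26.4% were called lower and 22.8% higher without PE, and 28.1% and 29.2% with PE. Tcf21 changed by 0.34 and 0.51, and Pdgfra, at 0.12 and -0.28, was not called (edgeR adjusted p = 0.439 and 0.0577). The summed CPM of the 10 markers went from between 15911 and 21492 in siNeg to between 6273 and 6566 in siSlc39a2. In siNeg its largest part was Col1a1, at 8990 to 11915 CPM, against 3296 to 3442 in siSlc39a2. In siNeg, siNeg PE and siSlc39a2 PE the replicate with the lowest fibroblast sum (15911 CPM in siNeg) also had the lowest Tpm3. This was not so in siSlc39a2. In that siNeg replicate Col1a1, Col3a1 and Pdgfra were the lowest of the group, whereas Dcn and Lum were the highest (62.5 and 32.2 CPM). The part of the fibroblast markers in the result was not tested. In bulk samples fewer cells of a type and less RNA per cell cannot be told apart.

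Of the remaining genes, 3 were called lower with knockdown without PE. Tnni3 changed by -0.34 (SE 0.11), Tnnc1 by -0.36 (SE 0.12) and Tpm1 by -0.29 (SE 0.08) on the log2 scale (edgeR adjusted p = 0.0272, 0.0272 and 0.00804). Tnni1 (-0.18, SE 0.12, adjusted p = 0.229), Tnnt2 (0.08, SE 0.09, adjusted p = 0.498) and the sparse Tnnt1 (0.49, SE 0.51, adjusted p = 0.449) did not pass the test. These values were relative to TMM scaling, whose factors were between 0.927 and 0.960 in siNeg and between 1.039 and 1.066 in siSlc39a2. With total counts in place of TMM the median of all genes rose by 0.14 to 0.13, and no member was called lower. Tnni3 was then at -0.19 (adjusted p = 0.148), Tnnc1 at -0.21 (adjusted p = 0.133) and Tpm1 at -0.15 (adjusted p = 0.0825), which is -0.32, -0.34 and -0.27 relative to that median, and Tnnt2 was called higher at 0.23 (adjusted p = 0.0326), or 0.10 relative to it. Limma after quantile normalization on log2(FPKM + 1) placed Tnni3 at 0.12, Tnnc1 at 0.076 and Tpm1 at -0.056 (adjusted p = 0.217, 0.321 and 0.415), and called Tnnt2 higher at 0.47 (adjusted p = 1.27e-04). In FPKM, the Tnni3 values of siSlc39a2 (1971 to 2141) overlapped those of siNeg (2133 to 2746).

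One siNeg library weighed on these 3 changes. Replicate 1 of siNeg had the highest Tnni3, Tnni1, Tnnt2, Tnnc1 and Tpm1 of its group, the lowest Tpm3 and the lowest fibroblast sum, and replicate 1 of siNeg PE and of siSlc39a2 PE was placed in the same way in its group, though not replicate 1 of siSlc39a2. Without siNeg replicate 1 the changes were -0.19 for Tnni3 (adjusted p = 0.133), -0.21 for Tnnc1 (adjusted p = 0.134) and -0.20 for Tpm1 (adjusted p = 0.0287). The calls of Tnni3 and Tnnc1 were also lost without replicate 1 of siSlc39a2 (adjusted p = 0.0881 and 0.0729) or its replicate 3 (0.113 and 0.166), and that of Tpm1 without replicate 3 (0.0709). The part of the fibroblast markers in these values was not tested.

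With PE, knockdown lowered both troponin I genes and troponin C. The change was -0.42 for Tnni3 (SE 0.11, edgeR adjusted p = 0.00676), -0.37 for Tnni1 (SE 0.12, adjusted p = 0.0211) and -0.37 for Tnnc1 (SE 0.12, adjusted p = 0.0197). The siSlc39a2 PE samples lay below all siNeg PE samples for each of these genes, with Tnnc1 between 3080 and 3644 FPKM against 4217 and 4815. On total counts the 3 genes kept their calls, at -0.41, -0.35 and -0.35. With limma on log2(FPKM + 1) they were at -0.20, -0.096 and -0.13, and Tnni3 alone of the 3 was called (adjusted p = 0.0385, 0.286 and 0.0853), a call that was lost on log2(FPKM + 0.1) (adjusted p = 0.0531). Without replicate 1 of siNeg PE, Tnni1 (-0.24, adjusted p = 0.107) and Tnnc1 (-0.29, adjusted p = 0.0791) were no longer called, nor were they without replicate 3 of siSlc39a2 PE (0.0774 and 0.0826), and Tnni1 was also lost without its replicate 2 (0.0589). Tnnt2 (0.15, SE 0.09, adjusted p = 0.189), Tpm1 (-0.07, SE 0.08, adjusted p = 0.481) and Tnnt1 (0.88, SE 0.45, adjusted p = 0.110) did not pass the test. Limma called Tpm1 in opposite directions, at -0.17 on log2(FPKM + 1) and at 0.34 on log2(count + 1) (adjusted p = 0.0185 and 0.00199), and called Tnnt2 at 0.59 on log2(count + 1) (adjusted p = 0.00241).

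Knockdown without PE thus left 1 of the 7 tested genes higher and 3 lower, where 22.8% of all tested genes were called higher and 26.4% lower. With PE it left 1 higher and 3 lower, where 29.2% and 28.1% of all genes were called, and Tpm3 with PE was the only member past 2-fold, where 6.03% of all genes were called higher past it. The interaction called 0 of the 7 genes by edgeR, with 1 (Tpm3) at an unadjusted p under 0.05, where 3.61% of all genes were called. DESeq2 called 0 as well, and limma on log2(FPKM + 1) called Tnnt2 (-0.42, adjusted p = 0.0219).

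**Figure D3:**
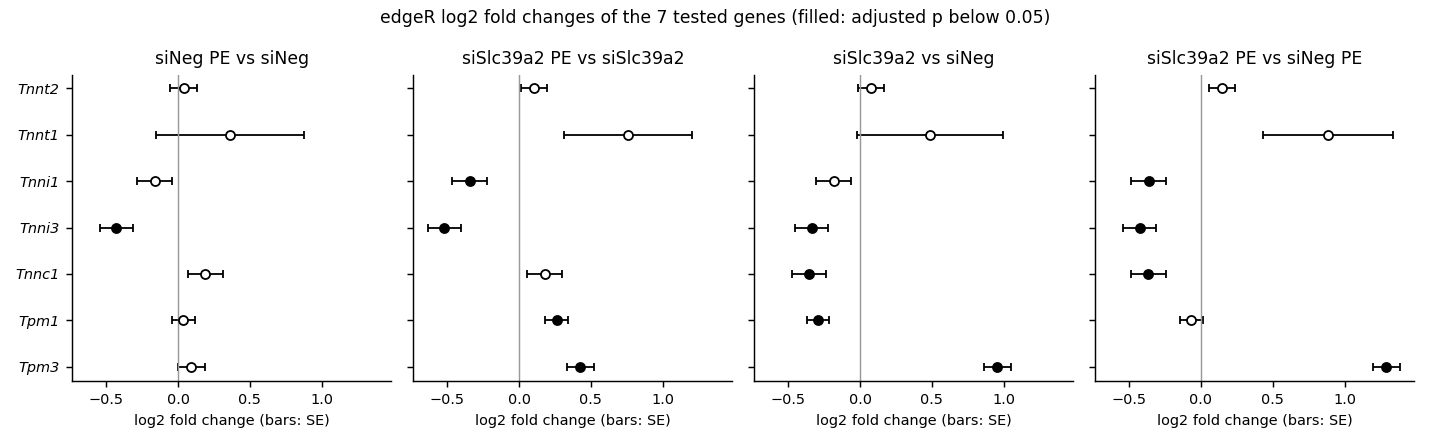
Log2 fold changes (x axis) of the 7 tested genes (y axis) in the 4 comparisons, with bars for the SE from edgeR and filled points for an adjusted p below 0.05. Tnni3 lay to the left of 0 in all 4 panels, although limma on log2(FPKM + 1) placed it at 0.12 with knockdown without PE, and Tpm3 was farthest to the right in both knockdown panels, at 0.96 and 1.29.

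The isoform ratios compare genes within a sample and do not depend on the scaling between samples. The log2 ratio of Tnni1 to Tnni3 FPKM was -0.36, -0.31 and -0.40 in siNeg and -0.055, -0.12 and -0.14 in siNeg PE. It was -0.12, -0.22 and -0.27 in siSlc39a2, and 0.00068, -0.11 and -0.023 in siSlc39a2 PE. With either siRNA all 3 PE samples lay above all 3 samples without PE. The share of Tnni1 in troponin I went from 43.8% ± 0.771 (SD, n = 3) in siNeg to 48.2% ± 0.778 in siNeg PE, and from 46.4% ± 1.34 in siSlc39a2 to 49.3% ± 0.971 in siSlc39a2 PE. Stratified by siRNA, the mean difference with PE was 0.21 on the log2 scale (two-sided exact permutation test over 400 arrangements, p = 0.005, the smallest it can give; adjusted p = 0.03 over 12 tests of 6 ratios and 2 factors). Stratified by PE, the difference with knockdown was 0.11 (exact permutation p = 0.015, adjusted p = 0.06), and the siSlc39a2 PE and siNeg PE samples overlapped. Tnni3 was lower with PE under both siRNAs, and Tnni1 was higher under neither. The call with PE was lost (adjusted p = 0.06) without replicate 2 of siSlc39a2 or replicate 1 or 3 of siSlc39a2 PE. Any left-out library lowers the number of arrangements, not only these. With either siRNA the remaining PE samples still lay above the remaining samples without PE. The difference with knockdown was called (adjusted p between 0.04 and 0.045) without replicate 2 of siNeg, 1 of siNeg PE, 3 of siSlc39a2 or 2 of siSlc39a2 PE, at 0.12 in each case.

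The ratio of Tpm3 to Tpm1 rose with knockdown by 1.28 on the log2 scale (exact permutation p = 0.005, adjusted p = 0.03). It was -7.69, -7.16 and -7.13 in siNeg, and -7.44, -7.08 and -6.90 with PE added. In siSlc39a2 it was -6.14, -6.10 and -6.00, and -5.90, -5.84 and -5.74 with PE added, so that all 6 knockdown samples lay above all 6 controls. The call was lost (adjusted p = 0.06) without replicate 2 of siSlc39a2 or replicate 1 or 3 of siSlc39a2 PE. Any left-out library lowers the number of arrangements. The remaining knockdown samples still lay above all remaining controls, so the separation did not depend on these libraries. With PE the difference was 0.22 (exact permutation p = 0.105, adjusted p = 0.187), and 0.29 without replicate 1 of siNeg PE (adjusted p = 0.045). Tpm3 was a small share of the 2 genes, at 0.628% ± 0.127 (SD, n = 3) in siNeg, 1.46% ± 0.0729 in siSlc39a2, 0.710% ± 0.130 in siNeg PE and 1.73% ± 0.0906 in siSlc39a2 PE. The ratio of Tnnt1 to Tnnt2 differed by 0.46 with PE and by 0.49 with knockdown (exact permutation p = 0.135 and 0.1, adjusted p = 0.187 for both), on at most 24 counts of Tnnt1 in a sample.

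The subunits of the troponin complex were also set against each other, a description chosen after the values were seen and given without a test. Summed troponin I FPKM over Tnnt2 FPKM was 0.989, 0.930 and 0.938 in siNeg, 0.754, 0.797 and 0.705 in siSlc39a2, 0.780, 0.762 and 0.711 in siNeg PE, and 0.548, 0.528 and 0.472 in siSlc39a2 PE. All 6 samples with a single treatment lay below siNeg, and the 3 samples with both lay below these. In the same order the means were 0.952 ± 0.0318, 0.752 ± 0.0460, 0.751 ± 0.0359 and 0.516 ± 0.0397 (SD, n = 3). Summed troponin I over Tnnc1 was 1.16 ± 0.00733 in siNeg and 1.24 ± 0.0587 in siSlc39a2, against 0.809 ± 0.0364 in siNeg PE and 0.799 ± 0.0256 in siSlc39a2 PE. All 6 PE samples lay below all 6 without PE, and without PE the siSlc39a2 samples lay above the siNeg samples. Tnnc1 over Tnnt2 was 0.823 ± 0.0287 in siNeg and 0.929 ± 0.0187 in siNeg PE, against 0.611 ± 0.0657 in siSlc39a2 and 0.647 ± 0.0594 in siSlc39a2 PE. All 6 knockdown samples lay below all 6 controls, and the siNeg PE samples lay above the siNeg samples.

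**Figure D4:**
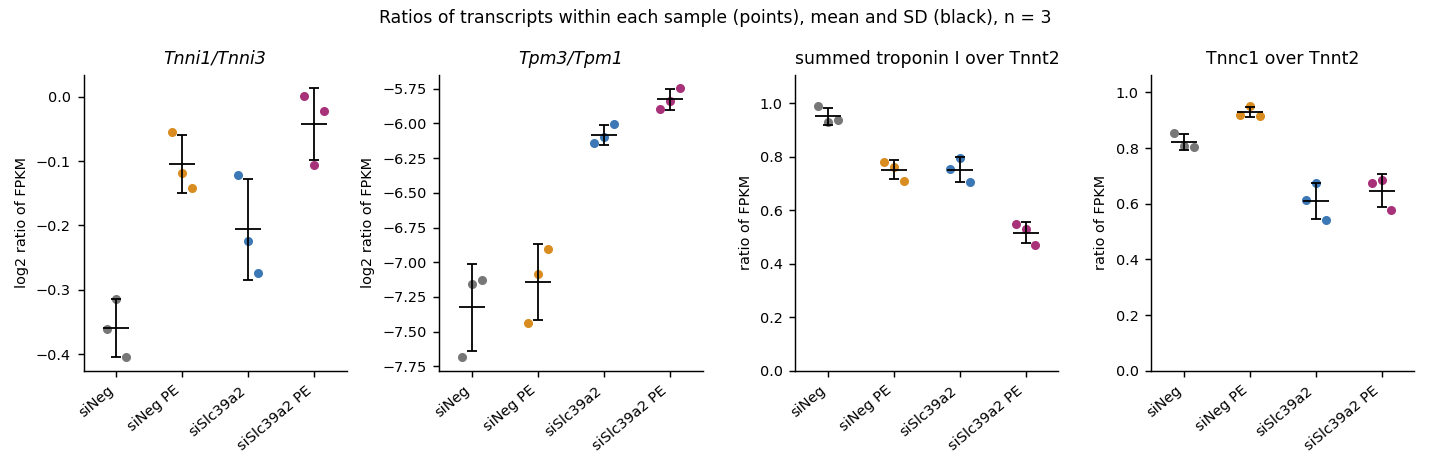
Ratios of transcripts within each sample by group, as the log2 ratio of FPKM for Tnni1/Tnni3 and Tpm3/Tpm1 and as the plain ratio of FPKM, on axes from 0, for summed troponin I over Tnnt2 and Tnnc1 over Tnnt2. Points are samples and black marks are the mean and SD (n = 3). Summed troponin I over Tnnt2 had means of 0.952, 0.751, 0.752 and 0.516 in the order plotted.

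The other tropomyosin genes, Tpm2 and Tpm4, lie outside the 10 chosen genes and were compared with Tpm1 and Tpm3. Tpm2, the beta-tropomyosin gene of striated and smooth muscle, changed by -0.37 with knockdown without PE and by 0.61 with PE (edgeR adjusted p = 9.90e-04 and 1.38e-05), and its interaction was 0.98 (SE 0.10, adjusted p = 1.58e-04). Tpm4, a cytoskeletal form, changed by 0.44 and 1.22 (adjusted p = 0.00968 and 3.96e-06), with an interaction of 0.79 (SE 0.17, adjusted p = 0.0241). The counts of Tpm4 were not whole numbers, so it is uncertain. Among other genes given here, the counts of Acta1, Tmod4, Myh6, Thra, Tead4, Col1a2 and Pdgfra were not whole either. The summed level of 6 smooth muscle markers (Myh11, Cnn1, Tagln, Acta2, Smtn and Des) was 6524 to 7236 CPM in siNeg, 3986 to 4409 in siSlc39a2, 6542 to 6864 in siNeg PE and 6263 to 6933 in siSlc39a2 PE. Most of it was Des, desmin, which cardiomyocytes make as well, at 4336 to 5072 CPM in siNeg and 3107 to 3526 in siSlc39a2. Of the 6, Acta2, Cnn1 and Tagln had a called interaction, all upwards, whereas Smtn was lowest in siSlc39a2 PE, at 67.9 to 74.8 CPM. Over all genes 3.61% had a called interaction. The part of the smooth muscle markers in the result was not tested. Tpm2 and Tpm4 had larger interaction estimates than Tpm3 (0.34) and Tpm1 (0.22), which did not pass. Of the FPKM of the 4 tropomyosin genes, Tpm1 held 95.3% ± 0.551 in siNeg and 91.3% ± 0.489 in siSlc39a2 PE, Tpm2 3.07% ± 0.239 and 4.50% ± 0.142, Tpm4 1.01% ± 0.208 and 2.57% ± 0.470, and Tpm3 0.602% ± 0.119 and 1.61% ± 0.0773 (SD, n = 3).

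**Figure D5:**
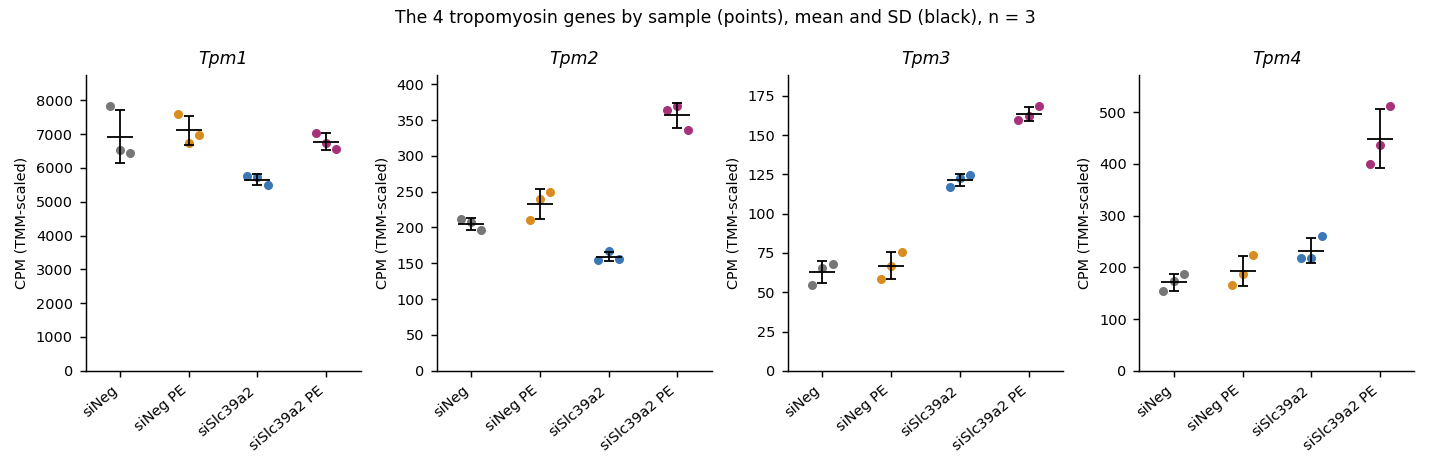
CPM (TMM-scaled) of the 4 tropomyosin genes by sample in the 4 groups, on axes from 0. Points are samples and black marks are the mean and SD (n = 3). Tpm3 was higher in both knockdown groups, whereas Tpm2 was lower in siSlc39a2 and highest in siSlc39a2 PE, with an interaction of 0.98 on the log2 scale.

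The other genes of the thin filament were counted in the same comparisons. Of 17 tested genes of a thin filament list (actins, tropomodulins, leiomodins, nebulin relatives and others), 12 rose and 2 fell with PE after siNeg and 15 rose and 2 fell with PE after knockdown, with a median log2 fold change of 0.47 and 0.95. Over all genes 24.0% rose and 25.7% fell in the first comparison, and 30.7% and 29.3% in the second. Acta1, skeletal alpha-actin, rose by 1.93 and 3.35 (edgeR adjusted p = 2.48e-08 and 1.72e-10), and Tmod4, a tropomodulin that caps the pointed end of actin, changed by -1.62 and -1.59. Knockdown left 6 higher and 4 lower without PE, among them Acta1 at -1.35 and Cap2, a regulator of actin turnover, at 1.05, and 11 higher and 0 lower with PE, with Xirp2 at 1.93 and Lmod3 at 1.13; the medians were 0.15 and 0.52. Over all genes 22.8% rose and 26.4% fell with knockdown without PE, and 29.2% and 28.1% with PE. Of 13 thick filament genes, 4 rose and 5 fell with PE after siNeg and 3 rose and 7 fell with knockdown without PE, where Myh6, alpha-myosin heavy chain, changed by -1.10 and Myl4, an atrial light chain, by -1.33. Mybpc2, the fast skeletal myosin-binding protein C, changed by 3.79 and 1.48 in these comparisons. With PE after knockdown 6 rose and 4 fell, and with knockdown in the presence of PE 3 rose and 5 fell, where Myl7 changed by -1.69 and Mybphl by 1.85. Mybpc2 changed by 3.13 with PE after knockdown. The 4 of 13 higher and 5 of 13 lower with PE after siNeg stand beside the 24.0% and 25.7% of all genes. The medians of the thick filament genes were 0.14 with PE after siNeg, -0.28 with knockdown without PE, 0.08 with PE after knockdown and -0.17 with knockdown with PE. Over all genes the medians lay between -0.02 and 0.01.

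Nuclear factors known to act on genes of striated muscle were counted as well. Of 13 tested, 2 rose and 3 fell with knockdown without PE, 3 rose and 4 fell with PE after siNeg, 2 rose and 2 fell with knockdown with PE, and 5 rose and 3 fell with PE after knockdown, with medians of 0.04, 0.15, 0.07 and 0.26. In the same order 22.8%, 24.0%, 29.2% and 30.7% of all genes rose and 26.4%, 25.7%, 28.1% and 29.3% fell, so the counts of this list were near the background. Thra, a thyroid hormone receptor, changed by -0.76 and -0.87 with knockdown without and with PE (edgeR adjusted p = 4.30e-06 and 1.28e-06). Tead4, one of the TEAD factors that bind the M-CAT box, rose by 0.99 and 0.73 with PE after siNeg and after knockdown (adjusted p = 7.45e-04 and 0.00308). Myocd, a coactivator of serum response factor, rose in all 4 comparisons, by between 0.71 and 0.85.

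The genes most like each member in their log2 CPM over the 12 samples were found among 9525 genes with a mean above 3. They share libraries and depth, and the correlations are a description. Ndufab1 (Pearson r = 0.995) and Etfb (0.993), both of mitochondrial energy metabolism, were the most like Tnni3. Edf1 (0.980) and Grb2 (0.978) were the most like Tnni1, Ppia (0.974) and Eef1d (0.959) the most like Tnnc1, and Mapt (0.994) and Slc10a7 (0.988) the most like Tpm3. Myl6 (0.945), a light chain of smooth and nonmuscle myosin, and Pigx (0.933) were the most like Tpm1. Chchd3 (0.923) and Derl2 (0.921) were the most like Tnnt2, and Ahsa2 (0.831) and Gspt1 (0.814) the most like the sparse Tnnt1. Within the set, Tnni1 and Tnni3 were the most alike (r = 0.942), followed by Tnnc1 and Tpm1 (0.873), while Tpm3 ran against Tnni1 (-0.77) and Tnni3 (-0.76).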

How the data were processed

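RNA of NRVMs in 4 groups of 3 samples was sequenced by BGI. The authors deposited expected counts for 18483 genes, which were not normalized, and a second table with their FPKM values. In expected counts, reads that match several genes are shared out, and 78.7% of the counts were whole. The submitters' processing notes name Rnor_6.0, HISAT and Bowtie2; the counting program and annotation are not given in the sources used here. The study's methods name limma after normalizeBetweenArrays, without the values they were run on.

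Counts were rounded, filtered with filterByExpr of edgeR 4.0.16 (R 4.3.3; 13967 genes kept), and scaled by TMM. A single model held all 12 samples and left 8 residual degrees of freedom. Groups were compared by the quasi-likelihood test with Benjamini-Hochberg adjustment over all genes kept, and called at an adjusted p below 0.05. SE is the absolute log2 fold change over the square root of F. The interaction subtracts the knockdown change without PE from that with PE. Isoform ratios used log2 of FPKM + 0.1 and a two-sided exact permutation test within strata (written in Python 3.11.15). Ratios with Tnni2, Tnnt3 or Tnnc2 counted in the adjustment over 12 tests, but they rest on at most 6 counts and are not reported. Total counts were between 24065539 and 28603854, and intervals of 3 counts cover counting error only.

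Alternatives were DESeq2 1.42.0, RLE size factors, no filter, only the groups compared, a replicate block, limma 3.58.1 on quantile-normalized log2(count + 1), log2(FPKM + 1) or log2(FPKM + 0.1), a pseudocount of 1 FPKM, counts or CPM in place of FPKM, and each replicate left out. Total counts in place of TMM was added after seeing the data. The fits were tested on simulated data of 13967 genes for knockdown without PE, in which 200 genes were changed by a log2 fold change of 2. A call there needed an adjusted p below 0.05 and an absolute log2 fold change over 1. By this stricter rule edgeR recovered 200 with 4 false calls. Smaller changes, such as those of most members, were not simulated.

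Members and gene lists were chosen with earlier results of these data known. Named were the 10 members, Slc39a2, the 2 genes most correlated with each tested member (mean log2 CPM over 3), and in each comparison the 3 called genes with the largest change from the thin filament, thick filament and nuclear regulator lists; Tpm2 and Tpm4 are also given in comparisons where that rule does not name them. Of the nuclear regulators, 1 gene is not reported here by name. Promoter sequences are from RefSeq (GRCr8), whose build differs from that of the counts, so coordinates of the builds were not joined.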

Additional observations from a re-analysis of the deposited data

How the results depend on the processing

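Of 458 recomputed values of single genes, 381 kept their direction and their side of the threshold, 33 lost the call, 16 gained one and 28 reversed. The increases of Tpm3 in both knockdown comparisons and with PE after knockdown, and the decrease of Tnni3 with PE after knockdown, held in all 15 settings.

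Without PE, knockdown left 2 members higher and 0 lower with total counts and with each of the 3 limma settings, in the order log2(FPKM + 1), log2(FPKM + 0.1) and log2(count + 1). Quantile normalization gives equal values to equal ranks. By mean FPKM, Tpm1 was 2nd in siNeg, siNeg PE and siSlc39a2, and 3rd in siSlc39a2 PE. In that order Tnni3 was then at 0.12, 0.12 and 0.043, Tnni1 at 0.16, 0.16 and 0.15, and Tnnc1 at 0.076, 0.076 and 0.022 (none called), and Tpm1 was at 0.095 with log2(count + 1). With PE, knockdown left 3 higher with log2(count + 1), where Tpm1 was at 0.34, and 1 lower with log2(FPKM + 0.1) and log2(count + 1). PE with siNeg left 3, 2 and 1 higher and 0, 0 and 0 lower, with Tnni1 at 0.053 in both FPKM settings. PE after knockdown left 1 higher in both FPKM settings, with Tnnt2 at -0.17 and Tpm1 at -0.11. The interaction left 1 lower in both FPKM settings (Tnnt2, -0.42, adjusted p = 0.0219 and 0.0416), and on total counts Tnnt2 was at -0.068. The cause of these differences between settings was not tested. On total counts the median interaction of all genes was -0.11, and Tnnt2 was at 0.04 and Tpm3 at 0.31 relative to it.

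With 1 library left out, knockdown without PE left between 0 (without siSlc39a2 replicate 3) and 3 members lower, and with PE between 1 and 3. PE with siNeg left between 0 and 1 higher, and PE after knockdown between 1 and 2 higher and between 1 and 2 lower. The ratio of Tnni1 to Tnni3 differed by between 0.19 and 0.23 with PE and between 0.087 and 0.12 with knockdown, and that of Tpm3 to Tpm1 by between 1.19 and 1.34 with knockdown and between 0.13 and 0.29 with PE. Uncalled changes that turned sign were Tnnt2 with knockdown (-0.0020 without siNeg replicate 3), and with PE after siNeg Tnnt2 (-0.042 without siNeg PE replicate 1 or siNeg replicate 3), Tnnt1 (between -0.064 without siNeg replicate 3 and 0.68) and Tpm1 (-0.011 without siNeg PE replicate 1, -0.0032 without siNeg replicate 2, -0.013 without siNeg replicate 3), and Tnnt2 in the interaction (-0.043 without siNeg replicate 1).

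Whether same-numbered samples share a preparation is not given in the sources used here, and the main model ignored the numbers. Same-numbered pairs correlated above 0.1 in 2 of 3 cases for PE with siNeg and for knockdown with PE. This held for 1 of 3 with PE after knockdown and 0 of 3 with knockdown without PE (r between -0.09 and 0.32). Pairs with different numbers ran from -0.25 to 0.24. With the replicate block the interaction left 1 member higher (Tpm3, 0.34, adjusted p = 0.0409), knockdown without PE also lowered Tnni1 (adjusted p = 0.0485), and the ratio of Tnni1 to Tnni3 with PE (0.21) and of Tpm3 to Tpm1 with knockdown (1.28) had an adjusted p of 0.0938, where the smallest p is 0.03125. A pseudocount of 1 FPKM called the ratio of Tnni1 to Tnni3 with knockdown (0.11, adjusted p = 0.036). From counts, the share of Tnni1 was 50.9%, 55.5%, 53.5% and 56.6% and that of Tpm3 0.910%, 0.936%, 2.10% and 2.36% in siNeg, siNeg PE, siSlc39a2 and siSlc39a2 PE, since counts do not allow for length. Depth limited Tnnt1, Tnnt3, Tnni2 and Tnnc2.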
